A study of Saccharomyces cerevisiae with 12 samples.

Results

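The coat protein complex II (COPII) genes of budding yeast, Saccharomyces cerevisiae, were followed through an acute stress of the endoplasmic reticulum (ER). The 9 genes are SAR1, SEC12, SEC16, SEC23, SEC24, SFB2, SFB3, SEC13 and SEC31, taken by gene symbol from the annotation of the array. Each was represented by 1 element, so the group holds 9 of the 6024 elements measured. The strains were Δire1, Δgcn4, Δgcn2 and WT, with 3 two-colour arrays for each strain and 12 in all. On every array, mRNA of cells given 2 mM DTT (dithiothreitol) for 30 min was set against mRNA of untreated cells of the same strain. The deposited values are log2 ratios with the treated cells on top. A log2 ratio of 1 is therefore a doubling of the relative mRNA level, and a ratio says nothing of how abundant an mRNA is.

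All of the strains were MATa cells derived from a common parent that carries mutant alleles of ura3, leu2, his3, trp1, ade2 and can1, grown in rich glucose medium to mid-log phase. In Δire1 the IRE1 gene was replaced by TRP1, whereas in Δgcn4 and Δgcn2 the deleted gene was replaced by his5+. Each deletion strain thus also differed from WT by the marker at its deletion, and Δire1 carried another marker than Δgcn4 and Δgcn2. The part of the markers in the responses was not tested. Both channels of an array came from the same strain, so the ratio of a deleted gene does not check the deletion. The arrays read bulk cultures, in which less mRNA per cell and fewer cells holding it cannot be told apart.

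DTT reduces disulfide bonds and so causes unfolded proteins to build up in the ER. In yeast the transmembrane kinase and nuclease Ire1p senses this state and splices the mRNA of the transcription factor Hac1p, which turns on the unfolded protein response (UPR). Gcn4p is the transcription factor of amino acid starvation, and Gcn2p is the kinase that promotes translation of GCN4 mRNA. COPII is the coat that buds vesicles carrying newly folded proteins from the ER to the Golgi apparatus. Assembly begins when Sec12p, a membrane protein of the ER, loads the small GTPase Sar1p with GTP. Sar1p then recruits the inner layer, Sec23p with Sec24p, and this in turn recruits the outer cage of Sec13p and Sec31p. Sec16p is a large scaffold at the sites of ER exit. SFB2 and SFB3 encode relatives of Sec24p that can pair with Sec23p and carry their own cargo.

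The array-wide picture sets the scale for the 9 genes. The median element lay slightly below 0, at -0.14 in Δire1, -0.16 in Δgcn4, -0.11 in Δgcn2 and -0.15 in WT, so calls of a fall outnumbered calls of a rise over all elements. Higher calls made up 25.5% of all calls in Δire1, 29.0% in Δgcn4, 40.0% in Δgcn2 and 32.0% in WT. With every array centered on its median these shares became 48.6%, 49.2%, 50.7% and 49.3% for the same strains in that order. Arrays of a strain correlated with one another over all elements at r of 0.642 to 0.846 in Δire1, 0.729 to 0.906 in Δgcn4, 0.932 to 0.943 in Δgcn2 and 0.853 to 0.876 in WT. A gene is called higher or lower below where its adjusted p (limma, Benjamini-Hochberg over all 6024 elements) was under 0.05.

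In WT cells, 6 of the 9 COPII genes rose after DTT, against 18.4% of all elements, and 0 fell, against 39.0%. The genes that rose were SFB2, SEC16, SEC23, SEC24, SEC31 and SEC12, with mean log2 ratios of 0.82 to 1.87. SAR1, SEC13 and SFB3 were not called, with means of 0.018, 0.21 and 0.15. In Δire1 cells, 0 of 9 rose, against 12.2% of all elements, and 4 fell (SFB3, SEC13, SAR1 and SEC16), against 35.6%. In Δgcn4 cells, 6 rose, against 15.8%, and 1 fell, against 38.7%. In Δgcn2 cells, 7 rose, against 25.2%, and 1 fell, against 37.8%. The gene that fell was SFB3 in both of these strains. The counts of 0 stayed at 0 with limma's unadjusted p under 0.05, a threshold for which no share of all elements was computed. The median over the 9 genes was -0.29 in Δire1, 0.46 in Δgcn4, 0.64 in Δgcn2 and 0.85 in WT.

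**Figure D1:**
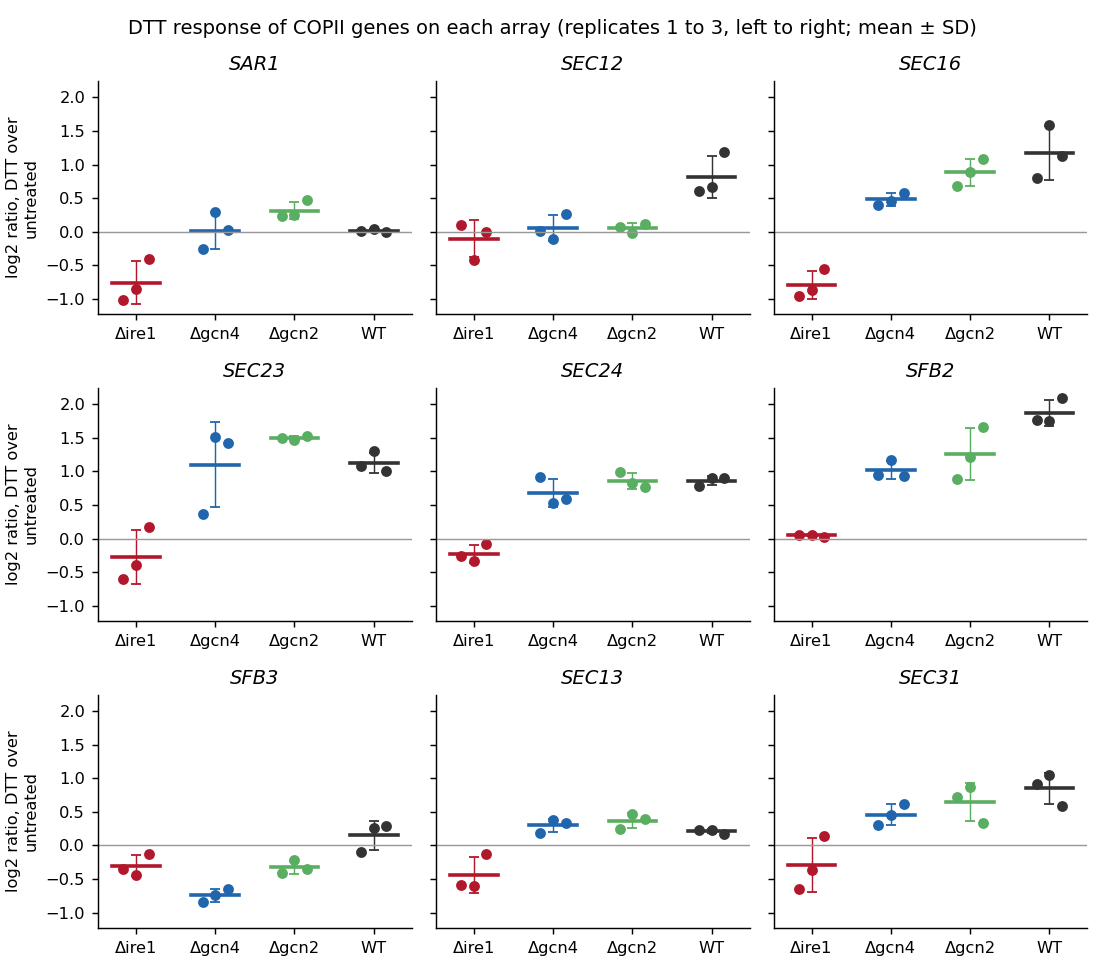
Log2 ratio after DTT relative to untreated cells (y axis) for each COPII gene in the 4 strains (x axis). Points are arrays, replicates 1 to 3 from left to right, the horizontal line is the mean and the bar is 1 SD (n = 3). For every gene all 3 Δire1 arrays lie below all 3 WT arrays.

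The switch that starts the coat comes first. SEC12, the exchange factor of Sar1p, gave log2 ratios of 0.10, -0.41 and 0.004 on the Δire1 arrays, 0.018, -0.11 and 0.26 on the Δgcn4 arrays and 0.074, -0.019 and 0.11 on the Δgcn2 arrays, against 0.61, 0.66 and 1.18 on the WT arrays. Every array of the 3 deletion strains was below the lowest WT array, and the deletion strains overlapped one another. The mean in WT was 0.82 ± 0.32 (SD, n = 3), a 1.76-fold rise (adjusted p = 4.44e-05), while none of the deletion strains had a called response (adjusted p of 0.518 in Δire1, 0.721 in Δgcn4 and 0.707 in Δgcn2). SEC12 was the COPII gene that was called higher in WT and in no other strain.

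SAR1, the GTPase that Sec12p activates, behaved differently. Its log2 ratios were -1.02, -0.84 and -0.40 in Δire1, -0.25, 0.29 and 0.021 in Δgcn4, 0.24, 0.25 and 0.47 in Δgcn2, against 0.019, 0.042 and -0.006 in WT. The WT values lay within 0.05 of 0, the Δire1 values were the lowest of all and the Δgcn2 values were all above the WT values. SAR1 fell to 0.593 of the untreated level in Δire1 (mean log2 ratio -0.75 ± 0.32, SD, n = 3, adjusted p = 0.000119). The rise in Δgcn2, 0.32 ± 0.13 (adjusted p = 0.0304), lost its call when any 1 of the 3 Δgcn2 arrays was left out, with adjusted p up to 0.19.

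SEC23 encodes the inner coat subunit that stimulates GTP hydrolysis by Sar1p. Its log2 ratios were -0.60, -0.40 and 0.18 in Δire1, 0.37, 1.51 and 1.43 in Δgcn4, 1.50, 1.47 and 1.53 in Δgcn2, against 1.08, 1.30 and 1.01 in WT. The Δgcn2 arrays were all above the WT arrays, Δgcn4 replicate 1 stood apart from the other 2 Δgcn4 arrays, and Δire1 replicate 3 was the only Δire1 array above 0. The means ran from 1.50 ± 0.034 in Δgcn2 through 1.10 ± 0.64 in Δgcn4 to -0.27 ± 0.41 in Δire1, with WT at 1.13 ± 0.15 (SD, n = 3 each). None of the differences among the 3 higher means was called (adjusted p of 0.974 for Δgcn4 minus WT, 0.329 for Δgcn2 minus WT and 0.36 for Δgcn4 minus Δgcn2).

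SEC24, the cargo-binding partner of Sec23p, had log2 ratios of -0.26, -0.34 and -0.078 in Δire1, 0.91, 0.53 and 0.59 in Δgcn4, 0.99, 0.82 and 0.76 in Δgcn2, against 0.79, 0.90 and 0.91 in WT. All Δire1 arrays were below 0 and all others above 0.5, and the Δgcn4 and Δgcn2 arrays overlapped those of WT. The mean was 0.68 in Δgcn4 (adjusted p = 3.48e-05), 0.86 in Δgcn2 (adjusted p = 1.97e-06) and 0.87 in WT (adjusted p = 2.43e-06). In Δire1 it was -0.23, with an adjusted p of 0.0694.

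The relatives of SEC24 went separate ways. SFB2 had log2 ratios of 0.059, 0.057 and 0.030 in Δire1, 0.95, 1.17 and 0.93 in Δgcn4, 0.89, 1.22 and 1.66 in Δgcn2, against 1.77, 1.75 and 2.09 in WT. The means of the 4 strains increased in that order, with the Δgcn4 and Δgcn2 arrays overlapping each other and neither reaching the lowest WT array. The WT mean of 1.87 ± 0.19 (SD, n = 3) is a 3.66-fold rise and ranked 21st from the top of the 6024 elements (adjusted p = 1.28e-08). In Δgcn2 the mean of 1.25 was a 2.39-fold rise, in Δgcn4 the mean of 1.02 was a 2.03-fold rise, and in Δire1 the mean was 0.049 (adjusted p = 0.767).

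SFB3, by contrast, had log2 ratios of -0.35, -0.43 and -0.12 in Δire1, -0.84, -0.74 and -0.64 in Δgcn4, -0.40, -0.22 and -0.35 in Δgcn2, against -0.093, 0.25 and 0.29 in WT. Each array of a deletion strain was below 0 and below the lowest WT array, and the Δgcn4 arrays were the lowest. The means were -0.30 in Δire1 (adjusted p = 0.0223), -0.74 in Δgcn4 (adjusted p = 1.84e-05) and -0.32 in Δgcn2 (adjusted p = 0.0106). With the arrays centered on their medians the falls in Δire1 and Δgcn2 were no longer called (-0.16, adjusted p = 0.223, and -0.22, adjusted p = 0.0727), and SFB3 was called higher in WT (0.30, adjusted p = 0.0208). The fall in Δgcn4 kept its call. The fall in Δire1 was also lost without Δire1 replicate 1 or 2, and the fall in Δgcn2 without Δgcn2 replicate 1 or 3.

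The outer cage is built of SEC31 and SEC13, of which SEC13 also serves in the nuclear pore. SEC31 had log2 ratios of -0.64, -0.37 and 0.14 in Δire1, 0.30, 0.45 and 0.62 in Δgcn4, 0.73, 0.87 and 0.33 in Δgcn2, against 0.92, 1.04 and 0.59 in WT. The Δire1 arrays were all below those of the other strains, which overlapped one another. The mean was 0.46 ± 0.16 in Δgcn4, 0.64 ± 0.28 in Δgcn2 and 0.85 ± 0.23 in WT (SD, n = 3 each), all called higher, and -0.29 ± 0.40 in Δire1, not called (adjusted p = 0.104). The call in Δgcn4 (adjusted p = 0.0121) was lost without Δgcn4 replicate 3 (adjusted p = 0.0974).

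SEC13 had log2 ratios of -0.59, -0.61 and -0.13 in Δire1, 0.19, 0.38 and 0.33 in Δgcn4, 0.24, 0.47 and 0.39 in Δgcn2, against 0.23, 0.24 and 0.18 in WT. The 3 WT arrays were close together and the Δgcn2 arrays sat just above them. The mean of 0.21 in WT missed the threshold (adjusted p = 0.0833) and passed it after centering (0.36, adjusted p = 0.00869). The rises of 0.30 in Δgcn4 and 0.37 in Δgcn2 passed (adjusted p of 0.0207 and 0.00516), as did the fall in Δire1, which averaged -0.44 (adjusted p = 0.00208). The Δgcn4 call was lost without Δgcn4 replicate 2 or 3 and the Δgcn2 call without Δgcn2 replicate 2.

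SEC16, the scaffold, had log2 ratios of -0.96, -0.86 and -0.55 in Δire1, 0.40, 0.47 and 0.58 in Δgcn4, 0.68, 0.89 and 1.09 in Δgcn2, against 0.80, 1.60 and 1.12 in WT. All Δire1 arrays were below -0.5 and all WT arrays above 0.8, and the difference of their means was the largest among the COPII genes. Its mRNA averaged 0.577 of the untreated level in Δire1 (adjusted p = 0.000164), 1.40-fold in Δgcn4, 1.85-fold in Δgcn2 and 2.26-fold in WT. The Δgcn4 arrays did not overlap those of Δgcn2 or WT, while Δgcn2 and WT overlapped.

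**Figure D2:**
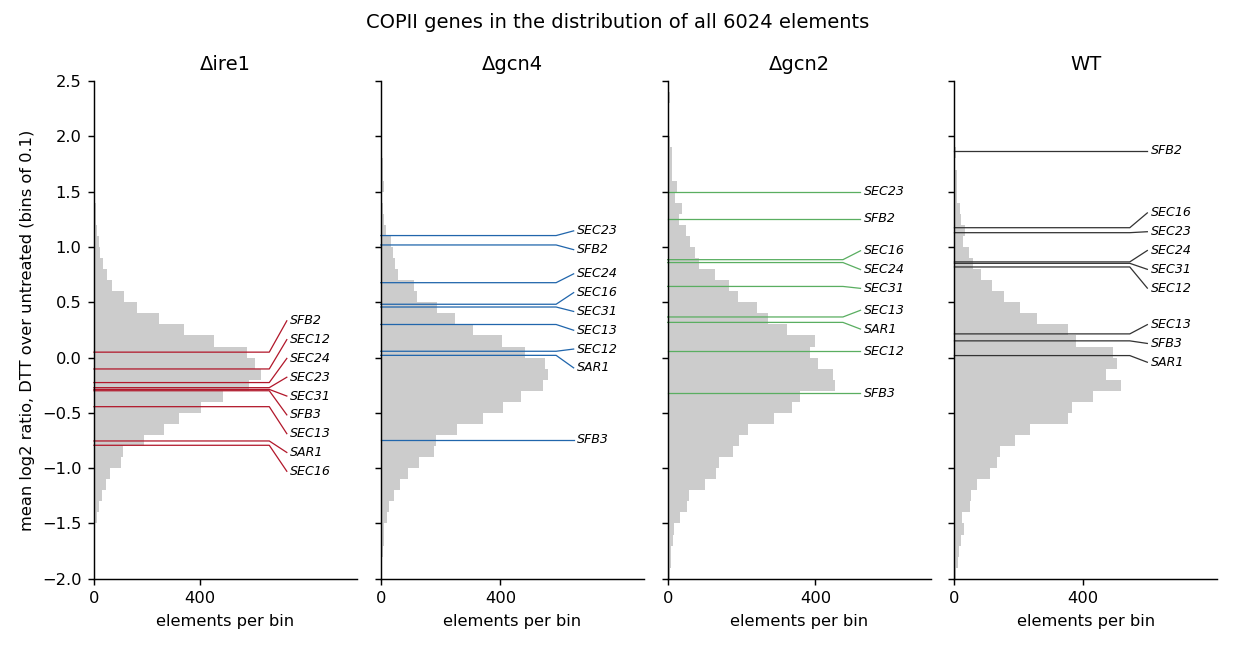
Mean log2 ratio after DTT relative to untreated cells (y axis, narrow bins, with the tails of the distribution outside the axis) against the number of array elements per bin (x axis, grey bars) in each of the 4 strains. Coloured lines mark the means of the 9 COPII genes, which reach up to SFB2 at 1.87 in WT and lie between -0.79 and 0.049 in Δire1.

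The first question of the design is which responses to DTT depend on IRE1. The response of Δire1 cells was below that of WT cells for 9 of 9 COPII genes, against 11.3% of all elements, and above it for 0, against 10.9%. For all 9 genes every Δire1 array was below every WT array, a separation seen for 17.2% of all elements. The difference, Δire1 minus WT, was -1.97 for SEC16 (95% interval -2.36 to -1.57, adjusted p = 4.95e-06), -1.82 for SFB2 (-2.19 to -1.45, adjusted p = 4.99e-06) and -1.40 for SEC23 (-1.94 to -0.86, adjusted p = 0.00132). It was -1.14 for SEC31, -1.09 for SEC24, -0.92 for SEC12, -0.77 for SAR1 and -0.66 for SEC13, with adjusted p between 7.58e-05 and 0.00481. The smallest was that of SFB3, -0.45 (-0.75 to -0.15, adjusted p = 0.033), and it alone was lost when WT replicate 2, WT replicate 3, Δire1 replicate 1 or Δire1 replicate 2 was left out. The median difference over the 9 genes was -1.09, beside 0.028 over all elements.

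These differences were built in more than 1 way. SAR1 had no called response in WT (0.018) and fell in Δire1 (-0.75). SFB2 and SEC12 had no called response in Δire1 (0.049 and -0.10) and rose in WT (1.87 and 0.82). SEC16 fell in Δire1 (-0.79) and rose in WT (1.17), with opposite signs on every array of the 2 strains, and SEC24 and SEC13 also had opposite signs on every array, although the mean of SEC24 in Δire1 and that of SEC13 in WT did not pass the test.

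The arrays of Δire1 were not equal for the COPII genes. The mean over the 9 genes was -0.47, -0.47 and -0.10 on the 3 Δire1 arrays, against 0.68, 0.87 and 0.82 on the 3 WT arrays. Replicate 3 of Δire1 gave the highest of the 3 Δire1 values for 7 of the 9 genes. Without it, 6 genes in place of 4 were called lower in Δire1, SEC24 and SEC31 being the additions, and 9 of 9 were again called lower than WT. Shares over all elements were not computed for these counts, and over all elements the Δire1 arrays correlated at r down to 0.642.

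Set against the other deletion strains, Δire1 again gave the lower log2 ratio for most COPII genes, with SEC12 and SFB3 as the exceptions. The response in Δire1 was below that in Δgcn4 for 7 of 9 genes, against 12.8% of all elements, and above it for 1, SFB3 (0.44, adjusted p = 0.0321), against 13.2%. It was below that in Δgcn2 for 7 of 9, against 21.0%, and above it for 0, against 15.8%. SEC12 was not called in either comparison, with differences of -0.16 from Δgcn4 (95% interval -0.53 to 0.21) and -0.16 from Δgcn2 (-0.53 to 0.21). SFB3 was also not called against Δgcn2, with a difference of 0.024 (-0.28 to 0.33). The call for SFB3 against Δgcn4 was lost without any 1 of the 3 Δgcn4 arrays and without Δire1 replicate 1 or 3. That of SEC31 (-0.75, adjusted p = 0.0129) was lost without Δire1 replicate 1 or Δgcn4 replicate 3.

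The second question is whether loss of GCN4 changes the response. Of the 9 COPII genes, 3 had a lower log2 ratio in Δgcn4 than in WT, against 1.94% of all elements, and 0 a higher one, against 0.863%. The 3 were SFB3 (Δgcn4 minus WT -0.89, 95% interval -1.19 to -0.59, adjusted p = 0.00186), SFB2 (-0.85, -1.22 to -0.48, adjusted p = 0.0108) and SEC12 (-0.76, -1.13 to -0.39, adjusted p = 0.0253). For SFB2 and SEC12 this was a smaller rise than in WT or none, whereas SFB3, not called in WT, fell in Δgcn4. SEC16 had a difference of -0.69 (-1.09 to -0.30) with an adjusted p of 0.0606, and was called without WT replicate 1 (then 4 genes in all) or without Δire1 replicate 3 (also 4). SEC23, SEC24, SEC13, SEC31 and SAR1 were not called, with differences between -0.39 and 0.085. The interval for SAR1 was -0.36 to 0.36 and that for SEC23 was -0.56 to 0.51. Without WT replicate 3, on which SFB2, SFB3 and SEC12 had their highest WT values, 1 gene (SFB3) was still called. Without Δgcn4 replicate 1 or 2, SEC12 lost its call, and without Δgcn4 replicate 3, SFB2 did.

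The third question concerns GCN2. Relative to WT, 3 of 9 COPII genes had a lower log2 ratio in Δgcn2, against 6.24% of all elements, and 0 a higher one, against 10.9%. They were SEC12 (Δgcn2 minus WT -0.76, 95% interval -1.14 to -0.39, adjusted p = 0.00988), SFB2 (-0.62, -0.98 to -0.25, adjusted p = 0.0248) and SFB3 (-0.48, -0.78 to -0.17, adjusted p = 0.033). Leaving out WT replicate 3, Δgcn2 replicate 1 or Δgcn2 replicate 2 left 1 call, that of SEC12. Without WT replicate 1 the calls were SFB3 and SEC12, and without WT replicate 2 or Δgcn2 replicate 3 they were SFB2 and SEC12. The comparisons of Δire1, Δgcn4 and Δgcn2 with WT share the 3 WT arrays. Over all elements, higher calls made up 63.6% of the calls in Δgcn2 minus WT, and 53.5% after centering each array.

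Same-numbered arrays of Δgcn2 and WT varied together, and a fit of these 6 arrays with the replicate number as a block called 6 COPII genes in place of 3. In that fit SEC12, SFB2, SFB3 and SEC16 were lower in Δgcn2 (adjusted p of 7.83e-12, 4.51e-08, 3e-05 and 0.0138), and SEC23 and SAR1 were higher (0.37, adjusted p = 0.00129, and 0.30, adjusted p = 0.0106). Within pairs, SEC23 was higher in Δgcn2 by 0.42, 0.17 and 0.53, and SAR1 by 0.22, 0.20 and 0.48. SEC16 was lower within pairs by unequal amounts, -0.12, -0.71 and -0.036. The blocked fit estimated 1 common error for all elements and called 1839 elements higher and 1192 lower, so these adjusted p rest on a spread shared by every gene.

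Between Δgcn4 and Δgcn2, 0 COPII genes were called in either direction, against 1.88% of all elements higher and 4.45% lower. With limma's unadjusted p under 0.05, 0 were higher and 2 lower, and the share of all elements under that threshold was not computed. These 2 were SFB3 (-0.42, 95% interval -0.72 to -0.12, adjusted p = 0.089) and SEC16 (-0.40, -0.80 to -0.009, adjusted p = 0.2). For SEC12 the difference was 0.001 (-0.37 to 0.37). Over all elements, higher calls made up 29.7% of the calls in this comparison and 46.5% after centering.

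**Figure D3:**
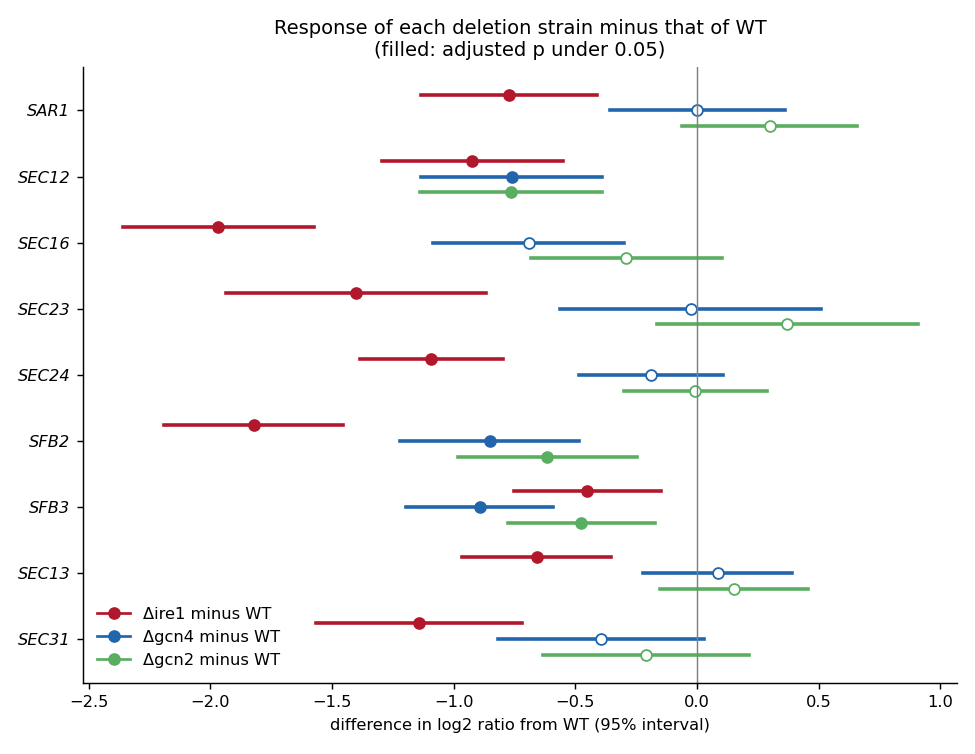
Difference in log2 ratio between each deletion strain and WT (x axis) for the 9 COPII genes (y axis), with Δire1, Δgcn4 and Δgcn2 from top to bottom within a gene. Points are differences of means (n = 3 arrays each), lines are 95% intervals, and filled points had an adjusted p under 0.05. All 9 Δire1 points are filled, whereas SEC12, SFB2 and SFB3 are the filled points of Δgcn4 and Δgcn2.

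A feature of the deposited table lies beside the Δgcn4 and Δgcn2 results. Its elements are not in 1 order throughout: the first 139 form short runs sorted by systematic name, and SFB2, SFB3 and SEC12 are the only COPII genes among them. The cut was set by hand where a new run starts at element 140, and was not in the planned design. Later runs start at elements 201, 1850, 1859, 1875 and 2764. Of those 139 elements, 91 were called lower in Δgcn4 than in WT, against 26 of the other 5885. In Δgcn2 minus WT the counts were 75 of 139 and 301 of 5885, and in Δire1 minus WT they were 105 of 139 and 573 of 5885. Among the COPII genes, 3 of the 3 in the first block and 0 of the 6 elsewhere were called lower in Δgcn4 and in Δgcn2, whereas in Δire1 it was 3 of 3 and 6 of 6. The sources used here do not say why these elements stand first, and the part of the table's order in the result was not tested.

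The 9 genes were then compared with one another over the 12 arrays, as a description in which the arrays of a strain are not independent points. Over the 36 pairs, Pearson's r ran between -0.012 (SFB3 with SEC13) and 0.973 (SEC23 with SAR1), with a median of 0.755. SEC23, SAR1 and SEC13 had nearly the same pattern as one another, with r of 0.94 to 0.97, although SEC23 rose in WT (1.13) and SAR1 was not called there (0.018). SEC16 went with SFB2 (r = 0.93) and SEC24 (r = 0.92). SFB3 and SEC12 were the least like the rest, and were closer to each other (r = 0.72) than SFB3 was to any other COPII gene.

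**Figure D4:**
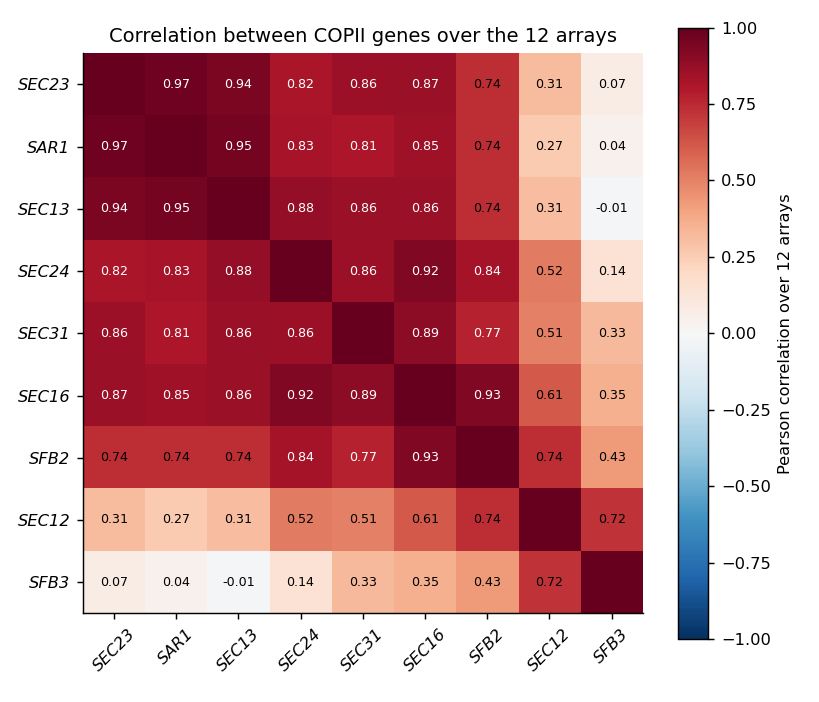
Pearson correlation of log2 ratios over the 12 arrays between each pair of the 9 COPII genes (both axes), coloured on a scale of -1 to 1 with r written in each cell. SEC23, SAR1 and SEC13 form the corner with r of 0.94 to 0.97, while SEC12 and SFB3 have the palest rows.

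The elements most like each COPII gene were also sought over the 12 arrays. SFB2 was closest to MPD1 (r = 0.950), a member of the protein disulfide isomerase family, EUG1 (r = 0.948), another such protein, and SIL1 (r = 0.948), the exchange factor of the ER chaperone Kar2p. SEC12 was closest to HRD1 (r = 0.950), a ubiquitin ligase of ER-associated degradation, ahead of CDC53 (r = 0.900) and BUD17 (r = 0.897). SFB3 was closest to UBC7 (r = 0.936), a ubiquitin-conjugating enzyme of the same degradation pathway, ahead of YJR029W (r = 0.926) and MET8 (r = 0.917). UBC7 averaged -0.18 in Δire1, -0.84 in Δgcn4, -0.22 in Δgcn2 and 0.25 in WT, the order seen for SFB3. SFB2, EUG1 and SIL1 are all among the first 139 elements of the table, as are SEC12 and SFB3. The places of MPD1, HRD1, CDC53, BUD17, UBC7, YJR029W and MET8 in it are not given here. The part of that order in these correlations was not tested.

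For the remaining genes of the coat the closest elements were more varied. SEC23 was closest to GUT1, a glycerol kinase (r = 0.974), SAR1 (r = 0.973) and ALG3, a mannosyltransferase of N-glycan assembly (r = 0.972). SAR1 was closest to GAT1 (r = 0.974), a transcription factor of nitrogen use, and, after SEC23, to PRY3 (r = 0.964). SEC24 was closest to SWA2, the auxilin-like protein of clathrin uncoating (r = 0.961), FPR2 (r = 0.960) and MED11 (r = 0.960). SEC16 was closest to PAU8 (r = 0.979), a gene of a large family of near-identical copies whose element may read several of them, MPD1 (r = 0.966) and STT3, the catalytic subunit of oligosaccharyltransferase (r = 0.963). SEC31 was closest to GPD2 (r = 0.928), PDI1 (r = 0.927) and OSH2 (r = 0.920), and SEC13 to BPL1 (r = 0.967), CLP1 (r = 0.966) and PAU18 (r = 0.960).

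Genes that work beside the coat give its setting. Of 4 paralogs or regulators of COPII, 1 rose in Δire1, against 12.2% of all elements, and a different 1 in Δgcn4, against 15.8%. In Δgcn2 and in WT, 2 rose, against 25.2% and 18.4%. In each strain 1 fell, against 35.6% in Δire1, 38.7% in Δgcn4, 37.8% in Δgcn2 and 39.0% in WT. SED4, a relative of SEC12 at the ER membrane, averaged 0.15 in Δire1, 0.40 in Δgcn4, 0.50 in Δgcn2 and 0.54 in WT, and was lower in Δire1 than in WT by -0.39 (adjusted p = 0.037). NEL1, a relative of SEC23, fell in all 4 strains, by 0.68 in Δire1, 0.75 in Δgcn4, 1.06 in Δgcn2 and 1.13 in WT. It therefore moved opposite to SEC23 in Δgcn4, Δgcn2 and WT.

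Of 14 measured cargo receptors and exit chaperones of COPII vesicles, 4 rose in WT, against 18.4% of all elements, and 3 fell, against 39.0%. In Δire1 minus WT, 6 were lower, against 11.3%, and 0 higher, against 10.9%. ERV29, the receptor of soluble cargo such as pro-alpha factor, averaged 0.11 in Δire1, 0.73 in Δgcn4, 0.86 in Δgcn2 and 1.27 in WT, and ERP2, a p24 protein, averaged -0.51, 0.83, 0.72 and 0.61 in the same strains. CHS7, which takes the chitin synthase Chs3p out of the ER, averaged 0.32 in Δire1, 0.79 in Δgcn4, 1.37 in Δgcn2 and 0.99 in WT and was called higher in each. ERV14, ERV15 and PHO86 were called lower in all 4 strains, ERV14 by 0.61 in Δire1, 0.62 in Δgcn4, 0.51 in Δgcn2 and 0.67 in WT.

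Vesicle tethering and fusion are the steps after budding. Of 18 measured genes of these steps, WT cells raised 2, against 18.4% of all elements, and lowered 9, against 39.0%. The Δire1 log2 ratio was below that of WT for 2, against 11.3%, and above it for 1, against 10.9%, with a median difference of -0.034. BET1, a SNARE of the ER-Golgi step, averaged -0.61 in Δire1, -0.69 in Δgcn4, -0.83 in Δgcn2 and -0.84 in WT. TRS31, TRS20, BET5 (subunits of the TRAPP tether) and YPT1, the Rab GTPase, were also called lower in all 4 strains. SEC18, the ATPase that disassembles SNARE complexes, rose in all 4, by 0.30 in Δire1, 0.65 in Δgcn4, 0.79 in Δgcn2 and 0.68 in WT.

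COPI is the coat of the return route to the ER. Of 18 measured genes of COPI and retrieval, WT cells raised 8, against 18.4% of all elements, and lowered 2, against 39.0%. The Δire1 log2 ratio was below that of WT for 6, against 11.3%, and above it for 1, against 10.9%. The coatomer subunits SEC26, SEC21 and RET2 were lower in Δire1 than in WT by -1.07, -1.06 and -1.01. In Δgcn4, 2 of the 18 were lower than in WT, against 1.94% of all elements, and 0 higher, against 0.863%. In Δgcn2, 2 were lower than in WT, against 6.24%, and 1 higher, against 10.9%. The lower genes were the same 2 in both strains, and both are among the first 139 elements of the table. SEC26, 1 of these 2, had the lowest Δgcn4 minus WT value of these lists. It averaged 0.052 in Δire1, -0.55 in Δgcn4, -0.087 in Δgcn2 and 1.12 in WT, so that Δgcn4 minus WT was -1.68 (adjusted p = 6e-06) and Δgcn2 minus WT was -1.21 (adjusted p = 0.00013). DSL1, of the tether at the ER, was called higher in all 4 strains and RER1, a retrieval receptor, lower in all 4.

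**Figure D5:**
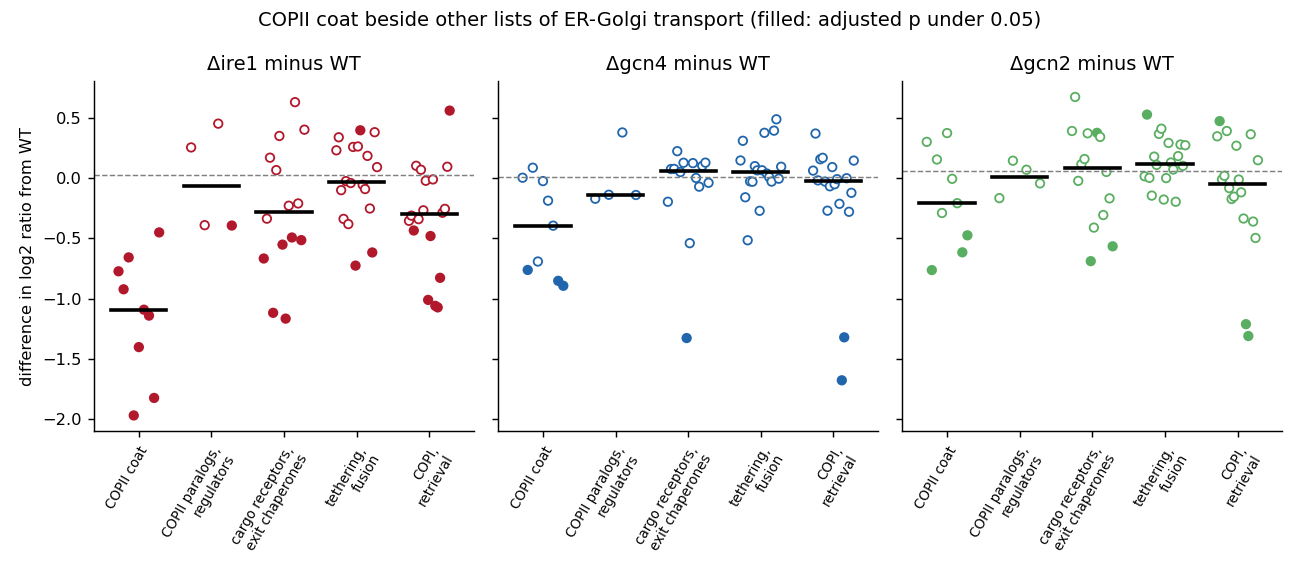
Difference in log2 ratio from WT (y axis) for genes of the COPII coat and of 4 other lists of ER-Golgi transport (x axis), in panels for Δire1, Δgcn4 and Δgcn2. Points are genes, filled where the adjusted p was under 0.05, black lines are list medians and the dashed line is the median of all elements. The coat median is -1.09 in Δire1, beside -0.034 for tethering and fusion and -0.30 for COPI and retrieval.

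A set of known UPR targets served as a scale for the COPII genes. KAR2, ERO1, PDI1, LHS1, SIL1 and EUG1 encode ER chaperones and oxidative folding enzymes. In WT, 6 of 6 rose, against 18.4% of all elements. In Δire1, 6 of 6 had lower log2 ratios than in WT, against 11.3%. Their median was 0.16 in Δire1, 1.36 in Δgcn4, 1.42 in Δgcn2 and 1.96 in WT. KAR2, the Hsp70 chaperone of the ER, averaged 0.85 in Δire1, 1.69 in Δgcn4, 1.82 in Δgcn2 and 1.96 in WT. The WT rise of SFB2 (1.87) was thus close in size to those of KAR2, ERO1 (1.96) and EUG1 (1.89), and those of SEC16 and SEC23 were close to that of PDI1 (1.23). SIL1 (2.89) and LHS1 (2.63) rose more in WT than any COPII gene. Of the 6 targets, 4 had lower log2 ratios than WT in Δgcn4, against 1.94% of all elements, and 4 in Δgcn2, against 6.24%. In both strains these were LHS1, EUG1, ERO1 and SIL1, which like PDI1 are among the first 139 elements of the table. KAR2, which stands elsewhere in it, had differences of -0.27 (adjusted p = 0.4) in Δgcn4 and -0.14 (adjusted p = 0.56) in Δgcn2.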

How the data were processed

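The deposited values are log2 ratios of DTT-treated over untreated cells, 1 column per array, which the authors made from two-colour spotted arrays. The normalization within arrays is not given in the sources used here, array medians were not 0, and no intensities were used, so spot depth is unknown and the number of arrays limits precision. The direction of the ratio is that stated in the labels. Of 6024 elements, 5432 carried 1 gene symbol in the platform annotation and 592 carried none. Cross-hybridisation between related genes such as SEC24, SFB2 and SFB3 was not tested.

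Strain means and their differences were fitted on all 12 arrays with limma 3.58.1 in R 4.3.3 (moderated variance, 15.5 degrees of freedom), with Benjamini-Hochberg adjustment over all 6024 elements at 0.05. The comparisons of Δire1 with Δgcn4 and Δgcn2 were added after the data were seen. The procedure was tested on simulated data with independent errors on each array, a test that does not cover arrays that vary together. The methods describe the arrays of a strain as independent experiments. WT replicate 1 has no number in its label and was numbered by elimination. Deviations from the strain mean correlated between same-numbered arrays of Δgcn2 and WT (r = 0.574, 0.625 and 0.661), so the numbers were taken to pair these 2 strains. Same-numbered arrays correlated more weakly for Δgcn4 with WT (r = 0.082, 0.276 and 0.293) and for Δgcn4 with Δgcn2 (r = 0.079, 0.244 and 0.262). Each pairing with Δire1 had a same-numbered r below 0.

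The COPII genes and the other lists were chosen with earlier results of these data known. From each of the other lists the text names the 2 genes with the largest WT change and those called in all 4 strains or changed by at least 1 in Δire1 minus WT. For each COPII gene it names the 3 elements with the highest Pearson r. Promoter motifs were not analysed here.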

Additional observations from a re-analysis of the deposited data

Results flagged for a closer look

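Each difference between strains in the response of a COPII gene that passed the test (limma, adjusted p under 0.05) is listed here because the effect of DTT differed between the strains. In Δire1 minus WT the 9 values were -1.40 for SEC23, -1.09 for SEC24, -1.82 for SFB2, -0.45 for SFB3, -0.66 for SEC13, -1.14 for SEC31, -0.77 for SAR1, -1.97 for SEC16 and -0.92 for SEC12. In Δgcn4 minus WT they were -0.85 for SFB2, -0.89 for SFB3 and -0.76 for SEC12. In Δgcn2 minus WT they were -0.62 for SFB2, -0.48 for SFB3 and -0.76 for SEC12.

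In Δire1 minus Δgcn4 the values were -1.38 for SEC23, -0.90 for SEC24, -0.97 for SFB2, 0.44 for SFB3, -0.74 for SEC13, -0.75 for SEC31, -0.77 for SAR1 and -1.28 for SEC16. In Δire1 minus Δgcn2 they were -1.77 for SEC23, -1.08 for SEC24, -1.21 for SFB2, -0.81 for SEC13, -0.93 for SEC31, -1.07 for SAR1 and -1.68 for SEC16. SFB3 in Δire1 minus Δgcn4 is the only positive value among them. With 3 arrays a strain, no group was large enough for a test of single outlying arrays.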

How the results depend on the processing

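Values for the COPII genes were recomputed with arrays centered, centered and scaled, weighted, blocked by replicate number, fitted robustly or by the strains of a comparison alone, and with each array left out. No called value changed sign, and 82 of the 1048 recomputed called values lost their call, 36 of them because a change of at least 1 was also required. With that size rule the calls numbered 0 in Δire1, 2 in Δgcn4, 2 in Δgcn2, 3 in WT, 5 in Δire1 minus WT, 0 in Δgcn4 minus WT, 0 in Δgcn2 minus WT and 2 in Δire1 minus Δgcn4. Array weights gave 7 lower calls in Δire1 in place of 4. The replicate block over all 12 arrays changed 1 call, adding SEC16 to Δgcn4 minus WT (4 in place of 3), and the replicate block on Δgcn2 and WT alone, added after the data were seen, gave 6 calls. Leaving out 1 array gave 3 to 6 calls in Δire1, 5 to 7 in Δgcn4, 6 to 8 in Δgcn2, 6 to 7 in WT, 8 to 9 in Δire1 minus WT, 1 to 4 in Δgcn4 minus WT, 1 to 3 in Δgcn2 minus WT, 6 to 8 in Δire1 minus Δgcn4 and 7 in Δire1 minus Δgcn2. Centering gave 8 higher calls in WT in place of 6, while over all elements higher calls in WT numbered 1661 in place of 1108. Lower calls over all elements in WT numbered 1708 in place of 2352. With the replicate block over all 12 arrays, lower calls over all elements in Δgcn4 minus WT numbered 137 in place of 117. Shares of all elements were not computed with array weights, with the size rule or with an array left out. A fit of the strains of a comparison alone lost 4 calls. These were SFB3 in Δire1, in Δire1 minus WT and in Δire1 minus Δgcn4, and SEC12 in Δgcn4 minus WT. Centering and scaling lost the calls of SFB3 in Δire1, in Δgcn2 and in Δgcn2 minus WT.

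Only values that were not called changed sign, and the cause was not tested. SEC12 in Δire1 was 0.040 centered, 0.039 centered and scaled and -0.20 to 0.052 with an array left out. In Δgcn4, SAR1 was -0.11 to 0.16 and SEC12 -0.046 to 0.14 with an array left out. In Δgcn4 minus WT, SEC23 was 0.089 scaled, 0.21 weighted and -0.23 to 0.34 with an array left out, and SAR1 -0.13 to 0.14. In Δgcn2 minus WT, SEC24 was 0.032 weighted and -0.072 to 0.042 with an array left out. In Δgcn4 minus Δgcn2, scaling gave 0.047 for SEC24, 0.099 for SFB2, 0.086 for SEC13 and 0.0011 for SEC31, and SEC12 was -0.10 to 0.084 with an array left out. SFB3 in Δire1 minus Δgcn2 was -0.023 weighted and -0.066 to 0.091 with an array left out. Signal over background was not measured here, so dim spots could not be told from bright ones.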
